A study of Mus musculus with 31 samples.

Results

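The 9 *MYCN*/*Alk* neuroblastomas of the mixed 129B6F1 background were divided by the state of chromosome 4. The study's array-CGH listed the whole chromosome as lost in 3 of them (tumors 2, 5 and 8) and not in the other 6 (tumors 1, 4, 9, 11, 37 and 38). These are 9 of the 31 tumors of the series, and the calls were linked to the expression arrays by the tumor number in each title. All 9 carried the human *MYCN* transgene under the tyrosine hydroxylase promoter, which is active in sympathetic cells, and a knock-in *Alk* mutation, F1178L or R1279Q. The loss tumors were 1 F1178L tumor (tumor 2, male, 19 weeks) and 2 R1279Q tumors (tumor 5, female, 16 weeks, and tumor 8, female, 25 weeks). The no-loss tumors were 5 F1178L tumors and 1 R1279Q tumor (tumor 9), from 3 males and 3 females of 9 to 27 weeks. A further 9 *MYCN*/*Alk* tumors of the 129S2 background (4 F1178L and 5 R1279Q, 7 males and 2 females, 5 to 10 weeks), with no listed alteration, served as a second reference. Each tumor had 1 array. Whether all came from separate mice is not stated, and the study found tumors at several sites in most of its *MYCN*/R1279Q mice and in all *MYCN*/F1178L mice. Tumors 1 and 2, on opposite sides, were both F1178L, male and 19 weeks old. The p-values therefore measure the spread between these tumors only.

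Neuroblastoma arises from the developing sympathetic nervous system. In human neuroblastoma the end of the short arm of chromosome 1, band 1p36, is often lost, and the mouse counterparts of its genes lie at the distal end of chromosome 4. Loss of a chromosome copy removes template for every gene on it, and many genes then give less RNA, while cells in the tumor piece that keep both copies dilute the difference. The comparison asked how RNA levels on chromosome 4, and elsewhere, differed with the call.

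Values were log2 GCRMA levels, on which a difference of 1 is a 2-fold difference. The medians of the 9 arrays over 17306 rows, 1 gene each, lay between 4.22 and 4.49, and values near log2 2 were the lowest the method gave. Rows above log2 4 in at least 3 of the 9 tumors were tested, which left 9395, among them 540 of the 992 rows placed on chromosome 4. The mean of 16 adrenergic genes, which mark the sympathetic lineage, was 9.86 to 10.53 in the loss tumors and 9.68 to 10.50 in the no-loss tumors. Sex-linked genes matched the listed sex in 9 of 9 tumors.

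The arrays of tumors 1, 2 and 4 matched their own array-CGH calls on other chromosomes less well than those of tumors 8, 9 and 38, which bears on the results below. For each tumor and autosome, the median log2 difference from the mean of the 129S2 tumors was centred on chromosomes 1, 7, 8, 9 and 18, which had no call in any of the 9 tumors. In tumors 8, 9 and 38, calls off chromosome 4 were counted where they covered a whole chromosome or a chromosome listed by its arm. The 7 such losses had medians below 0 (-0.45 to -0.13), and the 7 such gains had medians above 0 (0.07 to 0.33). Tumor 5 had no such call off chromosome 4, so its array could not be judged in this way. Calls of a single band were not counted, and chromosome 15, with a lost band in tumors 5 and 9, was at 0.04 and 0.00 in them. Uncalled autosomes of the tumors other than 1, 2 and 4 ran from -0.25, on chromosome 16 of tumor 8, to 0.08. The array labelled tumor 2, listed with 8 altered chromosomes, had medians of 0.10, -0.04 and -0.04 on its gained chromosomes 3, 6 and 12. On its 4 lost chromosomes other than chromosome 4 it had -0.09 to -0.01, so that it was nearly flat. The array labelled tumor 4 had 0.04 and -0.06 on its gained chromosomes 3 and 17, but 0.25 on chromosome 11, which had no call. The array labelled tumor 1, listed with a gain of chromosome 11 only, had 0.16 there, but also 0.27 on chromosome 6, -0.23 on chromosome 13 and -0.25 on chromosome 16.

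**Figure D1:**
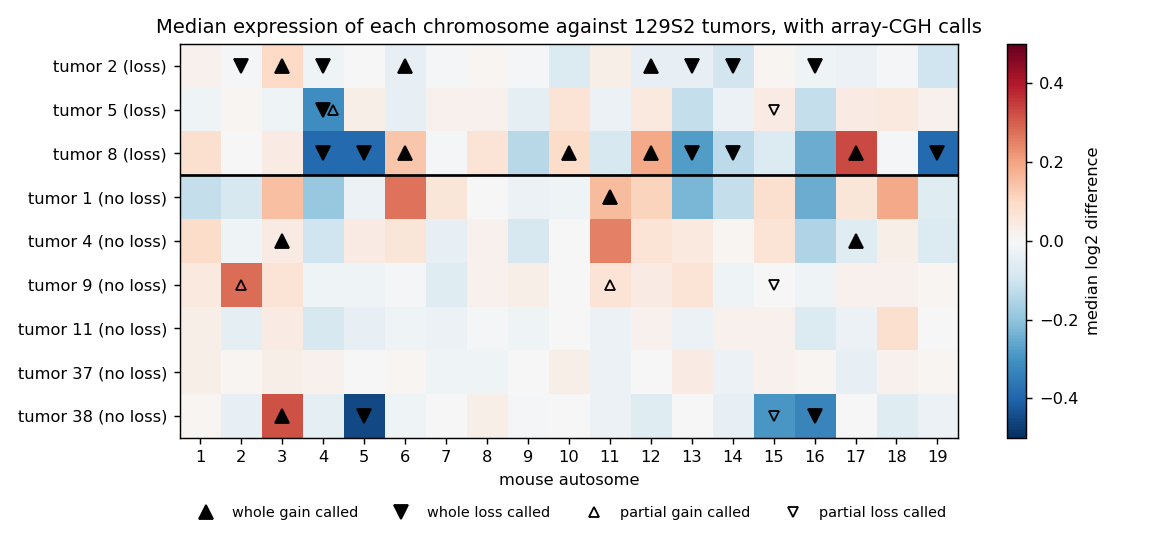
Median log2 expression difference of each autosome (columns) from the mean of the 129S2 tumors in the 9 tumors of 129B6F1 (rows, loss tumors on top), with the array-CGH calls of the same tumor number as triangles. Color and triangles coincide in tumor 8, where chromosomes 4, 5 and 19 are all at -0.39, whereas the array labelled tumor 2 stays between -0.10 and 0.10 on all 19 autosomes.

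The same was seen when each array was set against the calls of every tumor over the 18 autosomes other than chromosome 4. Coding gain as 1, loss as -1 and no call as 0, Pearson's r with the calls of the same number was 0.86 for tumor 8, 0.97 for tumor 38 and 0.74 for tumor 9. It was 0.34 for tumor 2, 0.28 for tumor 1 and -0.12 for tumor 4. The array labelled tumor 1 reached 0.79 with the calls of tumor 2, that labelled tumor 4 reached 0.68 with the calls of tumor 1, and that labelled tumor 2 reached 0.41 with the calls of tumor 4. Apart from the array labelled tumor 1, which reached 0.53 with the calls of tumor 8, arrays set against calls of another number otherwise reached up to 0.48 (tumor 38 with the calls of tumor 4), so 0.41 was within what such pairs gave. Sex-linked genes went with the labels, since tumors 1 and 2 were listed and expressed as male and tumor 4 as female. Arrays 4 and 2 thus differed in sex from the tumors whose calls they are set beside here. For the array labelled tumor 1 and the calls of tumor 2 this check could not tell, because both tumors were male. These are descriptions over chromosomes of single arrays, which share RNA and scaling. No sample was reassigned. Groups below follow the labels and the call list, and main values are also given without tumors 1, 2 and 4, a choice made after these values were seen.

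**Figure D2:**
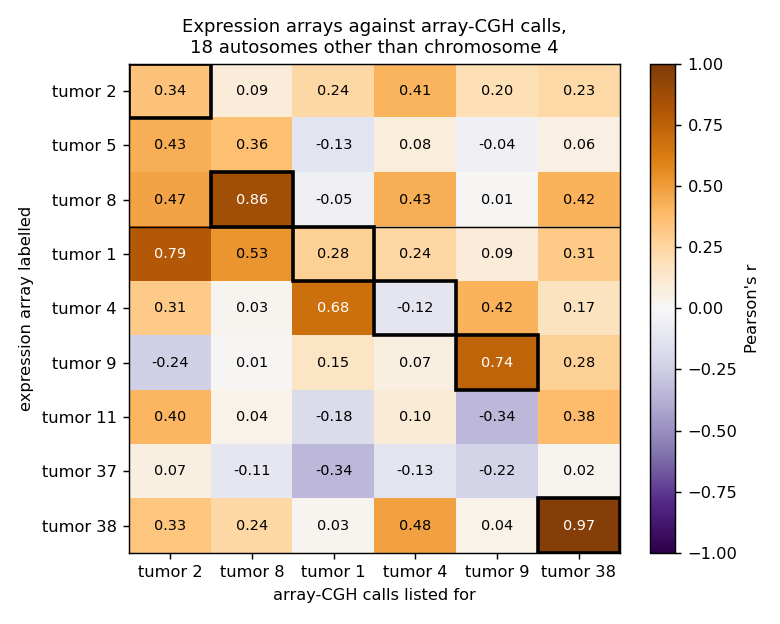
Pearson's r between the chromosome medians of each expression array (rows) and the array-CGH calls listed for each tumor (columns) over 18 autosomes without chromosome 4, with a box where both carry the same number. The boxed values are 0.86, 0.97 and 0.74 for tumors 8, 38 and 9, and 0.34, 0.28 and -0.12 for tumors 2, 1 and 4.

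Chromosome 4 expression was low in tumors 5 and 8 and was not low in the array labelled tumor 2. Against the no-loss mean, the median over 540 genes was 0.05 in tumor 2, -0.26 in tumor 5 and -0.30 in tumor 8. In the no-loss tumors, each set against the others, it was -0.14 in tumor 1, -0.03 in tumor 4, 0.05 in tumor 9, -0.02 in tumor 11, 0.08 in tumor 37 and 0.04 in tumor 38. Tumors 5 and 8 were below all 6 no-loss tumors, and tumor 2 was within their range. The loss tumors averaged -0.17 ± 0.19 and the no-loss tumors 0.00 ± 0.08 (SD, n = 3 and 6). Without tumors 1, 2 and 4 the difference between the averages was -0.32.

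Against the 129S2 tumors, the chromosome 4 median was -0.02 in tumor 2, -0.31 in tumor 5 and -0.39 in tumor 8, and it ran from -0.19 in tumor 1 to 0.02 in tumor 37 among the no-loss tumors. The 9 tumors of 129S2 lay between -0.02 and 0.01. As a linear ratio to 129S2, the medians were 0.81 in tumor 5, 0.77 in tumor 8 and 0.98 in tumor 2, where 1 copy in place of 2 would give a log2 difference of -1 if RNA followed copy number in every cell. The shift was spread over many genes, since 73.3% of the chromosome 4 genes in tumor 5 and 74.6% in tumor 8 were below the 129S2 mean, with 51.3% in tumor 2. Off chromosome 4 these shares were 50.5%, 53% and 50.9%. Among the no-loss tumors the chromosome 4 share was also raised in tumor 1, at 66.5% (49.5% off chromosome 4). In the other no-loss tumors it ran from 48.3% in tumor 37 to 57.8% in tumor 11.

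**Figure D3:**
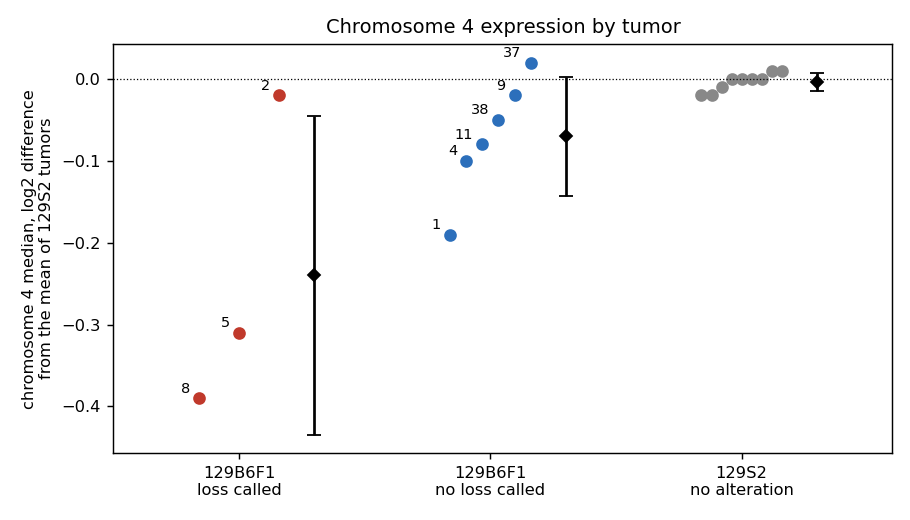
Median log2 difference of 540 chromosome 4 genes from the 129S2 mean, 1 point per tumor, for loss, no-loss and 129S2 tumors, with mean and SD as diamond and bar. Tumors 5 and 8 are at -0.31 and -0.39, below every no-loss tumor (-0.19 to 0.02), and tumor 2 is at -0.02.

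Other lost chromosomes of tumors 8 and 38 had shifts that ranged from larger to smaller than those of chromosome 4. In tumor 8, chromosomes 5 and 19 were each at -0.39 against 129S2, chromosome 13 at -0.28 and chromosome 14 at -0.13. In tumor 38, which kept chromosome 4, the lost chromosomes 5 and 16 were at -0.45 and -0.33. The uncalled autosomes of tumor 5 ran from -0.12 to 0.07, so chromosome 4 stood outside their range. Against the 129B6F1 tumors with no call on the chromosome, chromosomes 5, 13, 14 and 19 of tumor 8 were at -0.36, -0.27, -0.07 and -0.36. With that reference, chromosomes 5 and 16 of tumor 38 were at -0.43 and -0.22.

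Along the chromosome, tumor 8 was low throughout and tumor 5 was less low at the distal end. The 540 genes were divided in order into 5 blocks of 108. Block medians against 129S2, beginning at the centromeric end, were -0.40, -0.38, -0.32, -0.33 and -0.18 in tumor 5. They were -0.42, -0.39, -0.34, -0.42 and -0.36 in tumor 8, and 0.05, -0.11, 0.05, -0.07 and -0.06 in tumor 2. In the last block, from *C1qc* to *Klhl17*, which held 25 of the 28 tested 1p36 genes, tumor 5 was inside the range of the no-loss tumors (-0.20 to 0.01), and in the other 4 blocks it was below all of them. The difference between blocks was not tested.

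A running median over 21 genes was below 0 at 520 of 520 positions in tumor 5, at 515 in tumor 8 and at 262 in tumor 2. The array-CGH also listed a gained band, 4qA3, in tumor 5, which was not placed among the genes here. The running median of tumor 5 was highest, at -0.01, around *Mms22l*, gene 47 in order. The lowest stretch, from *Orm1* to *Mllt3* (genes 175 to 199, those in the windows of the lowest values), reached -0.70 in tumor 5 and -0.93 in tumor 8. It was also low in no-loss tumors 9 (-0.76), 4 (-0.66), 11 (-0.61) and 1 (-0.46), but hardly in 38 (-0.12) and not in 37 (0.04), so this dip was present on both sides.

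**Figure D4:**
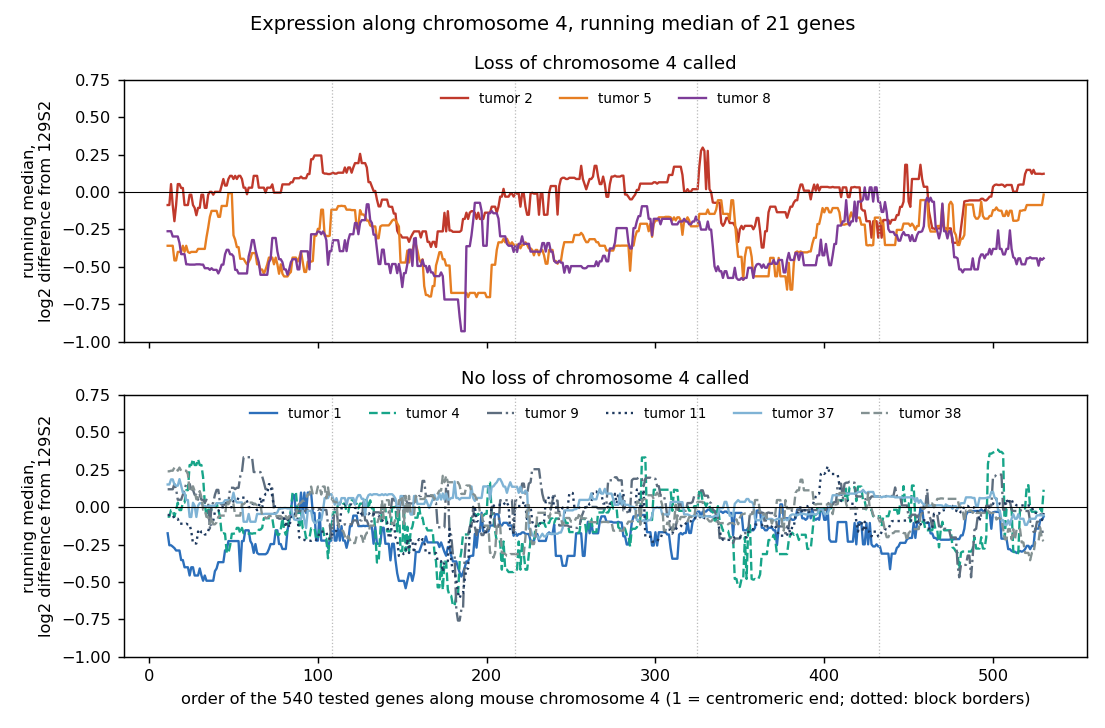
Running median over 21 genes of the log2 difference from the 129S2 mean along the 540 tested chromosome 4 genes in order, for loss tumors (upper) and no-loss tumors (lower), with dotted lines between 5 blocks. Tumors 5 and 8 are below 0 at 520 and 515 of 520 positions, and the dip at genes 175 to 199 occurs in both panels.

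The shift was smaller among weakly expressed genes. In the 180 chromosome 4 genes of lowest mean level, the median against 129S2 was -0.24 in tumor 5 and -0.25 in tumor 8. In the middle 180 it was -0.33 and -0.49, and in the 180 of highest level -0.39 and -0.38, in the same order of tumors. Tumor 2 had -0.05, -0.06 and 0.05 from low to high level.

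Gene by gene, no difference between loss and no-loss tumors passed the threshold. By limma with Benjamini-Hochberg adjustment, 0 of 9395 genes had an adjusted p under 0.05 (0%). At an unadjusted p under 0.05, 31 of 540 chromosome 4 genes were lower (5.74%) and 5 were higher, beside 2.96% lower and 2.62% higher over all genes. The median log2 fold change was -0.13 on chromosome 4, with 358 genes (66.3%) below 0, and 0.01 over the 8855 other genes, with 48.2% below 0. Single other chromosomes also moved, with 64% of genes below 0 on chromosome 13 (median -0.08), 30.7% on chromosome 17 (median 0.16), and 5.36% lower at an unadjusted p under 0.05 on chromosome 11. In 12 chromosome 4 genes (2.22%) all loss tumors were below all no-loss tumors, as in 1.63% of all genes. The chromosome 4 median was -0.21 without tumor 2 and -0.08 without tumor 8.

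Without tumors 1, 2 and 4, again 0 genes passed, and the chromosome 4 median was -0.26, with 72.8% of its genes below 0. At an unadjusted p under 0.05, 74 chromosome 4 genes were lower (13.7%) and 7 were higher, beside 5.32% lower over all genes. In 140 (25.9%) tumors 5 and 8 were both below tumors 9, 11, 37 and 38, as in 10.8% of all genes. Set against all 6 no-loss tumors, tumors 5 and 8 were both lower in 59 chromosome 4 genes (10.9%), as in 4.22% of all genes. In this fit the median of chromosome 13, lost in tumor 8, was -0.19 and that of chromosome 17, gained in tumor 8, was 0.23.

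*Alk* mutation went partly with the side. Within R1279Q, tumors 5 and 8 against tumor 9 gave a chromosome 4 median of -0.32, and within F1178L, tumor 2 against 5 tumors gave 0.06. Each has a side of 1 tumor, and the difference between them was not tested. With mutation as a covariate over all 9 tumors the median was -0.11, and 0 genes passed.

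The 12 chromosome 4 genes of smallest p are described although none passed. *Ugcg*, which encodes glucosylceramide synthase, was at 5.78, 5.64 and 5.67 in tumors 2, 5 and 8, and at 6.36, 6.48, 6.59, 6.18, 6.50 and 6.43 in tumors 1, 4, 9, 11, 37 and 38. All loss tumors, tumor 2 included, were below all no-loss tumors (log2 fold change -0.73 ± 0.16, SE; limma adjusted p = 0.628). *Bpnt2*, a Golgi phosphatase, was at 11.39, 10.60 and 11.04 in tumors 2, 5 and 8, and at 11.86, 11.60, 12.11, 12.06, 12.04 and 12.19 in the no-loss tumors in the same order as before. These also did not overlap (-0.97 ± 0.22, adjusted p = 0.652). *Rnf19b*, a ubiquitin ligase, was at 4.97, 5.24 and 4.88 in the loss tumors and at 5.31 to 6.02 in the no-loss tumors (-0.75 ± 0.20, adjusted p = 0.753).

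In the other 9 the sides overlapped. *Topors*, a ubiquitin and SUMO ligase, was at 7.23, 6.02 and 6.79 in tumors 2, 5 and 8, and at 7.91, 6.98, 7.75, 8.09, 7.77 and 7.75 in tumors 1, 4, 9, 11, 37 and 38. *Tgs1*, which makes the trimethylguanosine cap of small nuclear RNAs, was at 7.17, 6.51 and 6.70 in the loss tumors, and at 7.89, 6.75, 7.97, 7.76, 8.41 and 8.16 in the no-loss tumors. In both genes tumors 5 and 8 were below every no-loss tumor, and only tumor 2 overlapped, with tumor 4. *Mutyh*, a DNA repair glycosylase, had a log2 fold change of -1.16 ± 0.31, *Ptp4a2*, a tyrosine phosphatase, -0.78 ± 0.24, *Tmod1*, an actin filament cap, -1.38 ± 0.47, *Adprhl2*, an ADP-ribose hydrolase, -1.07 ± 0.38, and the zinc finger gene *Zbtb8a* -1.03 ± 0.33. *Mutyh* and *Adprhl2* were below log2 4 in all loss tumors and passed the filter only through the no-loss tumors, so their differences rest on low values. *Smpdl3b*, a membrane phosphodiesterase, had higher values on the loss side, with 6.08, 5.09 and 4.03 in tumors 2, 5 and 8 against 2.32 to 4.18 in the no-loss tumors (1.98 ± 0.54, adjusted p = 0.757). It passed the filter only through the loss tumors, since tumor 1 was the only no-loss tumor above log2 4.

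**Figure D5:**
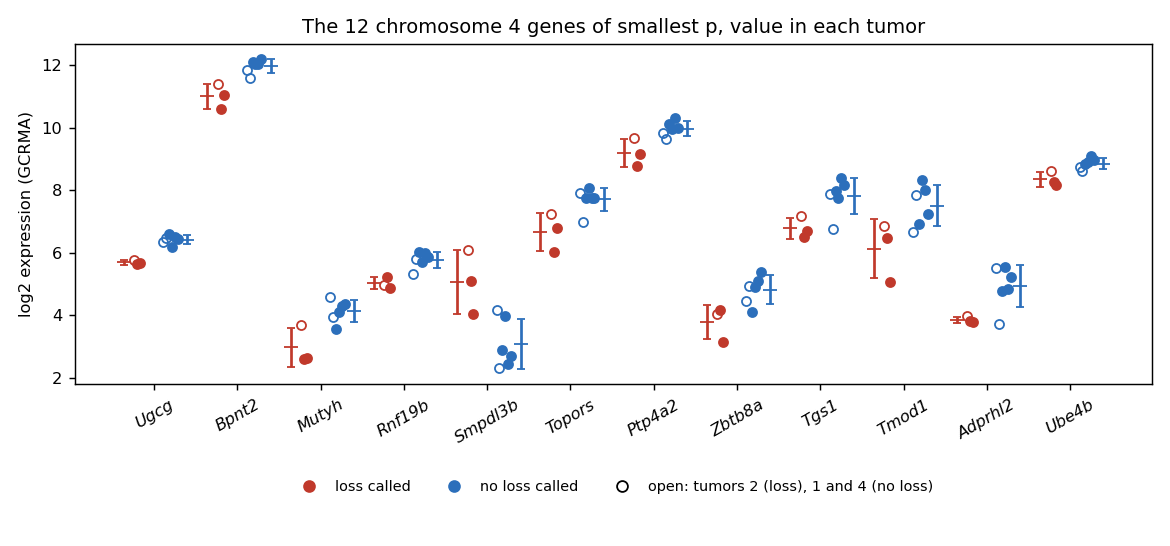
Log2 GCRMA level in each tumor of the 12 chromosome 4 genes of smallest p, loss tumors left of no-loss tumors, with mean and SD and with tumors 2, 1 and 4 as open symbols. *Ugcg*, *Bpnt2* and *Rnf19b* do not overlap between the sides, and *Smpdl3b* is the gene with higher loss values (4.03 to 6.08 against 2.32 to 4.18).

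Genes of the human 1p36 band include candidate tumor suppressors of neuroblastoma. Of 50 listed, 41 had a row and 28 were tested, of which none passed, 19 had a negative log2 fold change and 2 were lower at an unadjusted p under 0.05. Their median was -0.31, beside -0.13 for chromosome 4 as a whole and -0.05 for the 108 genes of the last block, which held 25 of them; the list was chosen by hand and its difference from its region was not tested. Without tumors 1, 2 and 4 the median was -0.51, with 22 of 28 negative and 9 lower at that threshold, beside 5.32% of all genes, 13.7% of chromosome 4 genes and a last-block median of -0.12 in that fit. *Ube4b*, a ubiquitin ligase, was at 8.63, 8.26 and 8.16 in tumors 2, 5 and 8, and at 8.76, 8.61, 8.83, 8.90, 9.11 and 8.97 in tumors 1, 4, 9, 11, 37 and 38. Tumors 5 and 8 were below every no-loss tumor, and tumor 2 was above tumor 4 (-0.51 ± 0.18, adjusted p = 0.869). *Ddost*, of the oligosaccharyltransferase, had -0.72 ± 0.27 and *Acot7*, an acyl-CoA thioesterase, -0.62 ± 0.28.

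*Arid1a*, a chromatin remodeler subunit mutated in some human neuroblastomas, was at 6.99, 7.01 and 6.77 in the loss tumors, and at 7.29, 6.94, 7.87, 7.37, 8.55 and 8.99 in tumors 1, 4, 9, 11, 37 and 38. The no-loss values were widely spread, with tumors 37 and 38 highest (-0.92 ± 0.43, adjusted p = 0.881). *Camta1*, a transcription activator, was at 10.02, 9.47 and 9.36 in tumors 2, 5 and 8, and at 9.54 to 10.65 in the no-loss tumors (-0.42 ± 0.30). *Kif1b*, a kinesin, was at 6.25, 6.06 and 5.82 in the loss tumors and at 5.59 to 6.90 in the no-loss tumors (-0.29 ± 0.27). For *Camta1*, tumors 5 and 8 were below all 6 no-loss tumors, while for *Kif1b* tumor 4 was the lowest of the 9.

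*Chd5*, a chromatin remodeler and candidate suppressor, was not lower. It was at 7.83, 7.39 and 7.01 in tumors 2, 5 and 8, and at 6.63, 8.11, 7.10, 7.02, 7.85 and 6.84 in tumors 1, 4, 9, 11, 37 and 38, so that the loss values lay inside the no-loss range (0.15 ± 0.36, adjusted p = 0.969). *Cenps*, a kinetochore protein, had 0.67 ± 0.51, *Zbtb17*, a partner of MYC, 0.05 ± 0.18, and *Errfi1*, an inhibitor of EGF receptor signaling, -0.49 ± 0.48. *Casz1* and *Runx3* did not pass the filter, with no value above 2.5 in the 9 tumors, and *Rere* was not analysed here.

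Of 38 other listed chromosome 4 genes, 25 were tested, none passed, 22 had a negative log2 fold change (median -0.28) and 1, *Mutyh*, was lower at an unadjusted p under 0.05. *Cdkn2a*, the locus of the p16 and p19 tumor suppressors, varied most between single tumors. It was at 2.18, 2.98 and 5.12 in tumors 2, 5 and 8, and at 9.09, 6.21, 2.17, 2.78, 2.18 and 2.20 in tumors 1, 4, 9, 11, 37 and 38. It was above log2 4 in tumors 1, 4 and 8 and below 3 in the other 6. The log2 fold change of *Cdkn2a* was -0.68 ± 1.57. Without tumors 1, 2 and 4 it was 1.72 ± 0.58 (limma adjusted p = 0.449), where tumor 8 alone was above log2 4. *Cdkn2c*, an inhibitor of cyclin D kinases, was at 6.76, 6.77 and 6.92 in the loss tumors, and at 6.21, 5.84, 7.87, 7.54, 7.54 and 7.64 in the no-loss tumors. Its log2 fold change was -0.29 ± 0.46, and -0.80 ± 0.21 without tumors 1, 2 and 4 (limma adjusted p = 0.393, the lowest over the alternatives).

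*Ccne2*, cyclin E2, was at 9.63, 8.81 and 9.01 in tumors 2, 5 and 8, and at 8.87, 9.44, 10.31, 10.11, 9.92 and 10.64 in tumors 1, 4, 9, 11, 37 and 38 (-0.73 ± 0.38). Only tumor 1 of the no-loss tumors was as low as tumors 5 and 8. *Prdx1*, a peroxiredoxin, had -0.47 ± 0.23, *Mllt3*, a chromatin reader, -0.62 ± 0.42, the neuronal RNA-binding genes *Elavl2* and *Elavl4* -0.28 ± 0.57 and -0.57 ± 0.46, the receptor phosphatase *Ptprd* -0.33 ± 0.59, and *Jun* -0.36 ± 0.45. *Mycl* did not pass the filter.

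Against the 129S2 tumors many genes passed, but background and age differed with the side and cannot be told apart from the loss. Sex differed in part as well, with 1 male and 2 females among the loss tumors and 7 males and 2 females among the 129S2 tumors. Tumors 2, 5 and 8 had 430 genes lower (4.58%) and 198 higher (2.11%) than the 129S2 tumors at an adjusted p under 0.05, among them 55 lower and 2 higher of the 540 on chromosome 4. Tumors 5 and 8 alone had 59 chromosome 4 genes lower and 3 higher, beside 3.82% lower over all genes, with a chromosome 4 median of -0.31. In 126 chromosome 4 genes (23.3%) both were below all 9 tumors of 129S2, as in 9.48% of all genes. The no-loss tumors against the same 129S2 tumors had 1 chromosome 4 gene lower and 3 higher, beside 0.117% lower over all genes, with a chromosome 4 median of -0.11 (-0.06 without tumors 1 and 4). These comparisons share the 129S2 tumors.

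Several genes named above fell against 129S2. *Arid1a*, *Kif1b*, *Ube4b*, *Camta1* and *Chd5* were fixed by name. Of these, *Ube4b* and *Arid1a* were also among the genes of smallest p, *Arid1a* within its list. The genes not fixed by name were chosen by small p with the same loss tumors. The values of those genes, and of *Ube4b* and *Arid1a*, are therefore a description and no separate support. *Tgs1* averaged 6.79 ± 0.34 in the loss tumors and 8.29 ± 0.13 in the 129S2 tumors (SD; log2 fold change -1.50, limma adjusted p = 0.000168). *Mllt3* averaged 7.66 ± 0.12 in the loss tumors and 8.94 ± 0.22 in the 129S2 tumors (-1.28, adjusted p = 0.000806). *Arid1a* averaged 6.92 ± 0.13 in the loss tumors and 8.16 ± 0.34 in the 129S2 tumors (-1.24, adjusted p = 0.00559). *Ddost*, *Ube4b*, *Acot7*, *Kif1b*, *Topors*, *Ptp4a2*, *Bpnt2*, *Adprhl2* and *Tmod1* passed as well, with log2 fold changes of -0.86, -0.63, -1.0, -0.95, -1.17, -0.95, -0.92, -1.61 and -2.28, but *Kif1b* did not without tumor 2 (limma adjusted p = 0.0639). The no-loss tumors also had negative differences from 129S2, none of which passed, with -0.65 for *Kif1b*, -0.66 for *Mllt3*, -0.47 for *Tgs1*, -0.33 for *Arid1a* and -0.90 for *Tmod1*. *Ugcg* (-0.64, adjusted p = 0.0536), *Camta1* (-0.75, adjusted p = 0.121) and *Chd5* (-0.14, adjusted p = 0.824) did not.

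Off chromosome 4, the 8 genes of smallest p did not pass. The sides did not overlap in any of them, which the choice by p favors. *Slc22a29*, *Nhlh2*, *Ncf4* and *Grik4* passed the filter on low values only through the loss tumors, and *Ltbr* and *Plagl1* only through the no-loss tumors. For *Slc22a29*, tumor 9 was the only no-loss tumor above log2 4. *Slc22a29*, a member of the organic anion transporter family on chromosome 19, was at 6.97, 7.88 and 5.66 in tumors 2, 5 and 8, and at 2.26, 2.32, 4.35, 2.24, 2.21 and 2.22 in tumors 1, 4, 9, 11, 37 and 38. It was near the lowest level of the method in every no-loss tumor but tumor 9, so its difference is no exact fold (4.24 ± 0.59, adjusted p = 0.177). It passed when tumor 9 was left out (4.59, limma adjusted p = 0.0277, with 0.000189 to 0.779 over all alternatives that kept the 129B6F1 reference). Leaving out tumor 9 left only no-loss values near the lowest level. The 0.000189 came from the fit over 18 tumors, whose added 129S2 tumors were also near that level (mean 2.24). *Nhlh2*, a neuronal transcription factor, was at 5.37, 4.43 and 4.31 in the loss tumors and at 2.72 to 3.25 in the no-loss tumors (1.83 ± 0.25, adjusted p = 0.177). *Rasa3*, a Ras GTPase-activating protein, was at 8.30, 8.81 and 9.09 in the loss tumors and at 7.04 to 7.63 in the no-loss tumors (1.40 ± 0.22, adjusted p = 0.285).

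The other 5 were *Sspn*, sarcospan (1.61 ± 0.26), *Ncf4*, of the phagocyte NADPH oxidase (2.03 ± 0.35), *Grik4*, a kainate receptor subunit (1.0 ± 0.18), *Ltbr*, the lymphotoxin beta receptor (-1.09 ± 0.20), and *Plagl1*, an imprinted zinc finger gene (-1.38 ± 0.26). The same loss tumors, for whose values the 8 genes were chosen, were also set against the 129S2 tumors, which is given as a description. They differed by 4.60 in *Slc22a29* (129S2 mean 2.24, near the lowest level), 1.52 in *Rasa3*, 2.03 in *Ncf4* and 1.14 in *Grik4*, which passed. The differences of 0.82 in *Nhlh2*, 0.87 in *Sspn*, -1.11 in *Ltbr* and -0.90 in *Plagl1* did not pass.

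Drivers of neuroblastoma did not separate the sides. The mouse *Mycn* row was at 8.35, 7.20 and 8.80 in tumors 2, 5 and 8, and at 6.67 to 9.68 in the no-loss tumors (-0.15 ± 0.66). *Alk* was at 9.52, 8.79 and 9.95 in the loss tumors and at 7.93 to 10.01 in the no-loss tumors (0.20 ± 0.46). *Ret*, a receptor tyrosine kinase, had -0.42 ± 0.71, *Odc1*, of polyamine synthesis, 0.13 ± 0.40, *Mdm2*, the p53 inhibitor, -0.26 ± 0.29, *Lmo1* -0.33 ± 0.22 and *Atrx* -0.43 ± 0.37. Of 8 tested drivers 5 were negative (median -0.20), and *Trp53* was not analysed here.

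In the sympathetic lineage, 9 of 16 adrenergic genes had a negative log2 fold change (median -0.07), none passed and 1 was lower at an unadjusted p under 0.05, beside 2.96% of all genes. Without tumors 1, 2 and 4 the median was -0.31, with 11 of 16 negative. The gene lower at that threshold was *Th*, the rate-limiting enzyme of catecholamine synthesis, at 13.20, 11.71 and 12.06 in tumors 2, 5 and 8, and at 12.58 to 13.57 in the no-loss tumors (-0.89 ± 0.34, adjusted p = 0.872). Tumors 5 and 8 were below all no-loss tumors, and tumor 2 was not. Other members lay on both sides of 0, with 1.99 ± 1.12 for *Gata3* and -1.49 ± 0.72 for *Gata2*, transcription factors of the lineage. Of 25 neuronal structure genes, 16 were negative (median -0.11, and -0.52 with 20 negative without tumors 1, 2 and 4), none passed and 3 were lower at an unadjusted p under 0.05, beside 2.96% of all genes. These were *Syt1*, of synaptic vesicles, at 2.13 to 2.43 in the loss tumors and so no exact fold, and the cytoskeletal genes *Nefh* and *Mapt* (-1.94 ± 0.68, -0.55 ± 0.22 and -1.09 ± 0.47). *Syt1* passed the filter only through the no-loss tumors. *Prph*, peripherin, was at 9.26, 8.28 and 4.37 in tumors 2, 5 and 8, and at 8.83 to 10.57 in the no-loss tumors, so that tumor 8 stood lowest by far.

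In the growth and stress lists no member passed. Medians, beside 0.01 over all genes, were -0.15 for 22 mitosis genes, -0.02 for 22 S phase genes, -0.07 for 18 MYC target genes, 0.08 for 15 p53 target genes, -0.01 for 17 ribosomal protein genes, 0.01 for 13 heat shock and proteasome genes and 0.26 for 4 interferon and MHC class I genes. Without tumors 1, 2 and 4 the mitosis and S phase medians turned to 0.03 and 0.14. *Polr1b*, a subunit of RNA polymerase I, was at 6.06, 5.77 and 5.40 in tumors 2, 5 and 8, and at 6.55 to 7.57 in the no-loss tumors, without overlap (-1.30 ± 0.25, adjusted p = 0.449). *Eda2r*, a p53 target of the TNF receptor family, was at 5.31, 6.31 and 8.17 in the loss tumors, and at 5.67, 2.75, 5.44, 4.71, 2.68 and 3.38 in the no-loss tumors (2.49 ± 0.85, adjusted p = 0.869). Against 129S2 *Eda2r*, which lies on chromosome X, rose by 3.60 (limma adjusted p = 0.00395), in a comparison where background, age and in part sex differed. The 129S2 mean of *Eda2r* was low, at 3 (SD 0.72). *Eda2r* was chosen from its list by small p with the same loss tumors, so this value is a description and no separate support. *Tyms*, *Rrp9* and *Rpl23* had -1.21 ± 0.49, -0.79 ± 0.34 and -0.72 ± 0.31, and *Cdc45* had 0.54 ± 0.23. *Tyms* was at 2.75 to 3 in the loss tumors and passed the filter only through the no-loss tumors, so its difference rests on low values.

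Markers of other cell types differed between single tumors, no marker gene passed, and their part in the results was not tested. In such tumor pieces fewer cells of a type and less RNA per cell cannot be told apart. Tumor 8 had the highest means of endothelial and mural markers (6.86, with 4.51 and 3.80 in tumors 2 and 5, against 4.08 to 5.33 in the no-loss tumors) and of macrophage markers (7.70, with 5.96 and 5.90, against 5.70 to 6.70). Of the B cell list, the immunoglobulin genes *Igkc*, *Jchain* and *Ighm* were at 10.72, 8.57 and 4.26 in tumor 8. The other members, *Cd79b*, *Ms4a1* and *Pax5*, were near the lowest level there (2.19, 2.46 and 2.01). The list mean of 5.04 in tumor 8 thus rested on the former, where the other 8 tumors had means of 2.24 to 2.74. Erythroid markers averaged 6.94 in tumor 2 and 5.36 in tumor 4, and at most 2.72 in the others. Liver genes were high in no-loss tumor 11, with *Alb* at 15.46 where the other tumors had at most 2.55. Fibroblast marker means were 6.52 to 8.74 in the loss tumors and 7.20 to 8.65 in the no-loss tumors, and Schwann cell marker means 4.37 to 5.28 and 3.88 to 4.99. In the T cell list 8 of 9 genes, and in the adrenal cortex list 8 of 8, were at or below log2 4 in all 9 tumors. List medians were 0.50 for 4 Schwann cell, -0.15 for 7 endothelial and mural, 0.03 for 11 macrophage and -0.38 for 9 fibroblast genes. Without tumors 1, 2 and 4 they were 0.57, 0.74, 0.21 and 0.64 in the same order, so that the endothelial and fibroblast medians changed sign.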

How the data were processed

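RNA from 31 mouse tumors was hybridized to Affymetrix Mouse Genome 430 2.0 arrays. The deposited values were log2 levels, normalized by the authors with GCRMA and summarized per Entrez gene. Versions are not given in the sources used here. Of 17306 rows, 842 had no symbol. Chromosome and gene order came from the RefSeq table of GRCm38.p6. Chromosome 4 status, background, sex and age came from the study's array-CGH list, linked by tumor number, since the deposited labels do not give them per tumor.

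Loss and no-loss tumors were compared with limma 3.58.1 (R 4.3.3), two-sided, without covariates, with Benjamini-Hochberg adjustment over 9395 rows above log2 4 in at least 3 tumors, tested on simulated data. Named genes were those of smallest p on chromosome 4 (12) and elsewhere (8), because fewer than 5 passed, genes fixed by name, and up to 4 per list. Members and lists were chosen with earlier results of these data known. The number of arrays limits precision. Alternatives covered covariates, filters, scaling, moderation, references and single tumors left out.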

Additional observations from a re-analysis of the deposited data

Results flagged for a closer look

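Of 99 groups of values tested (97 genes in the no-loss tumors, and the chromosome 4 medians of the no-loss and the 129S2 tumors) for a sample far from the others, 13 were flagged, where chance flags about 1 in 20. The 3 loss tumors are too few for this test and were not included. On chromosome 4 these were *Topors* in tumor 4 (6.98, low), *Prdx1* in tumor 38 (13.58, high) and *Mllt3* in tumor 37 (9.76, high). Elsewhere, tumor 9 stood apart for *Slc22a29* (4.35, high), *Ret* (6.70, low) and *Insm1* (11.88, high), and tumor 1 for *Nhlh2* (3.25, high) and *Prph* (10.57, high). Tumor 37 stood apart for *Mapt* (9.57, high), *Acta2* (5.93, low) and *Fn1* (7.70, low), tumor 4 for *Vwf* (7.37, high) and tumor 11 for *Adgre1* (7.49, high).

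The chromosome 4 median was -0.32 within R1279Q (tumors 5 and 8 against tumor 9) and 0.06 within F1178L (tumor 2 against 5 tumors). The difference between them was not tested.

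Among arrays outside the comparisons, with no array-CGH calls used here, chromosome 3 medians against 129S2 were 0.27, 0.53 and 0.48 in *MYCN* tumors 22, 25 and 32, and the chromosome 14 median was -0.51 in R1279Q tumor 24.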

How the results depend on the processing

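Against 0 genes passing in all 9 tumors, 1 passed with a Student test (*Slc25a25*, 0.18), 1 with array weights (*Slc22a29*, 4.65), 2 in one fit over 18 tumors (*Slc22a29* and *Ncf4*), 628 with the 129S2 tumors as reference and 499 with that reference without tumors 1, 2 and 4. With single tumors left out the number ran from 0 to 1. The chromosome 4 median log2 fold change (-0.126) was 0.004 with no filter, 0.061 within F1178L, -0.318 within R1279Q, -0.26 without tumors 1, 2 and 4 and -0.305 without them against 129S2, and ran from -0.211 to -0.082 with single tumors left out. The difference between the sides' chromosome 4 medians by tumor (-0.167) was -0.013 over all chromosome 4 rows and -0.317 without tumors 1, 2 and 4. The cause was not tested. The alternatives without tumors 1, 2 and 4 were chosen after seeing the data. No paired analysis was possible because the groups share no replicate numbers. With 3 loss tumors, 1 of which was nearly flat on its called chromosomes, no single gene passed in all 9 tumors, which does not show that none differed.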
